A study of Daphnia magna with 22 samples.

Results

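A group of 151 gene models of the water flea Daphnia magna stood higher under caloric restriction than on the full diet in both clones studied. They are 151 of the 14657 rows of the deposited count table, and 5.38% of the 2805 rows that lay within the level, identifier and clone limits used to choose them. They were chosen by measured values of the CR and control libraries. Counts were scaled to a common library total to give CPM, the usual depth-scaled unit, and levels were taken as log2(CPM + 1). A row was a member when its mean level in animals under caloric restriction (CR) was at least 0.5 above that of control animals in the GB clone and again in the IL clone. Its mean over all 22 libraries also had to lie from 5 to below 2000 CPM, its clones had to differ by less than 3 on the log2 scale, and its identifier, beginning with KZ, had to stand on no more than 4 rows. Rows within the same limits that were lower by 0.5 or more in both clones numbered 30. Both counts depend on the scaling: with library sizes scaled by TMM, which sets the typical gene model to no change, 83 rows were raised and 56 lowered.

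Caloric restriction, a lower food supply without starvation, lengthens life in many animals and shifts metabolism from storage to the use of reserves. Beta-hydroxybutyrate (BHB) is a ketone body that mammals make from fat during fasting and use as fuel and as a signal. Nicotinamide mononucleotide (NMN) is a precursor of NAD+, the coenzyme of many oxidation reactions and a substrate of sirtuin deacetylases.

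Each of the 22 libraries came from the body of 1 adult female, sampled shortly after laying and with the eggs removed, of GB, from a lake in London, or IL, from a Jerusalem pond. Control animals had 400000 algal cells per mL and CR animals 100000. The BHB and NMN groups had the full diet and a bath of 2 h a day in 2.5 mM BHB or 0.1 mM NMN, and control and CR animals went through the same handling in plain medium. There were 3 females per clone in control, CR and BHB and 2 per clone in NMN. All groups share these handling and egg-removal steps, and each clone is a single genotype. The females were sampled at an age of 75 ± 2 days. RNA of whole bodies cannot tell more cells of a kind from more RNA per cell.

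Libraries held 8503141 to 14353733 counts. The library numbers 17 to 22 are those of the 6 CR animals and of no others, so library order and restriction cannot be told apart. Mean library number was also higher in NMN, at 13.25, than in control, at 7.5, or BHB, at 6.33. The IL NMN libraries, numbered 15 and 16, came after every IL control and IL BHB library. In IL, library order and NMN cannot be told apart either. The table does not pair its identifiers with gene names, and 0 of them matched the gene table that RefSeq gives for assembly GCF_020631705.1. The members are therefore described by identifier, level and pattern, with no function and no sequence, and the labelled tissue could not be set against marker genes. For the same reason at most 2 identifiers are named in each direction of a comparison. An added number, as in KZS18147_1, tells apart rows that carry 1 identifier, whose reads may be divided among them. There were 21 members on such repeated identifiers, and 150 distinct identifiers in all.

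The members were mostly of low to middle abundance. Their mean over all libraries ranged from 5.02 to 1940 CPM with a median of 32.2 CPM, whereas the median of all rows within the limits was 85.5 CPM. Together they took 1.59 ± 0.171% of the counts of control libraries (SD, n = 6) and 3.06 ± 0.191% of those of CR libraries (SD, n = 6). Their share was 1.70 ± 0.314% under BHB (SD, n = 6) and 1.90 ± 0.133% under NMN (SD, n = 4). The control and CR shares follow from how the members were chosen. Over all libraries the median GB minus IL level of the members was -0.01, with 74 members higher in GB, and 13 of the 151 (8.61%) differed by more than 1 between clones, against 8.13% of all rows within the limits. Over the control libraries alone the median was 0.14, with 20 members (13.2%) more than 1 apart, beside -0.09 and 10.4% for the other rows within the limits. These control values took part in choosing the members.

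The size of the restriction difference is a description, since it chose the members. Its median was 0.82 in GB, with quartiles of 0.64 and 1.10, and 0.82 in IL, with quartiles of 0.64 and 1.11. The same median over all rows within the limits was 0.26 in GB and 0.05 in IL. A difference of 1 or more, which is 2-fold or more on the scale of CPM + 1, was found in 43 members in GB and 53 in IL. It was found in both clones in 23 members and in a single clone in 50. The difference was larger in IL in 77 members, and in 88 the clones lay within 0.3 of each other; differences between the clones were not tested. Across members, Pearson's r between the clones' differences was 0.35 and Spearman's rho 0.38, over points that share their libraries and a lower limit of 0.5. Near the limit, the members with the smallest lower-clone differences stood at 0.50148, 0.50167 and 0.50329, and the rows just outside at 0.49948, 0.49904 and 0.49711. There were 52 members below 0.6 and 66 rows from 0.4 to just under 0.5, so that the group has no natural edge.

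**Figure D1:**
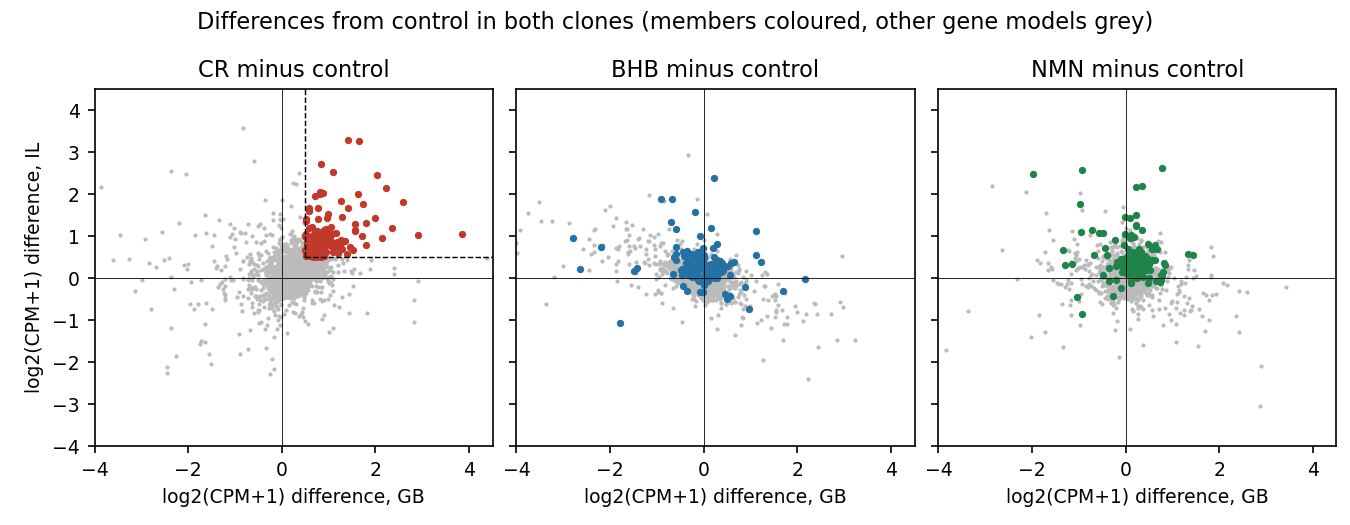
Difference from control on the log2(CPM + 1) scale in GB (x axis) and in IL (y axis), for CR, BHB and NMN; each point is 1 of 2805 gene models, the 151 members are coloured and the others grey. Dashed lines mark the 0.5 limits that chose the members; under BHB 68 of 151 members lie above 0 in GB and 130 in IL, and under NMN 112 lie above 0 in GB and 139 in IL. There were 3 gene models outside the axes for CR, 1 for BHB and 0 for NMN.

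Part of the restriction difference in GB was shared by most gene models. With TMM scaling, the CR difference of all gene models fell by 0.25 in GB and by 0.08 in IL, and that of NMN by 0.14 and 0.06. All 151 members still stood above control in both clones on that scale, by at least 0.26 in GB and 0.42 in IL, with medians of 0.58 and 0.74. Applied to those values, the same limits gave 83 rows, of which 82 were among the 151. For BHB the difference of all gene models fell by 0.003 in GB and by -0.0004 in IL. The share of counts taken by the most abundant row of the table also varied with treatment. Its mean was 5.06% in control, 6.37% in BHB, 1.16% in CR and 2.00% in NMN. The part of that row in the differences was not tested beyond the change of scaling.

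The CR and control libraries did not overlap in most members. In 116 members (76.8%) every GB CR library lay above every GB control library, against 43.1% of all rows within the limits. For IL the count was 100 members (66.2%) against 13.2%, and for both clones at once 82 members (54.3%) against 7.34%. These shares describe the contrast that chose the members, and nothing is read from them. In 39 members (25.8%) every CR library of each clone was above every control, BHB and NMN library of that clone, which held for 2.14% of rows within the limits. In edgeR's quasi-likelihood test over 4965 gene models, which all 151 members entered, 63 members (41.7%) were higher in CR than in control at an adjusted p under 0.05, against 2.05% of all tested. The counts of 39 and 63 members also use libraries that chose the members, so they are descriptions and add no support. The edgeR count was 41 without IL control replicate 2, and 1 when library number was a linear term. Calls over all gene models, in either direction, were then 125 and 1, against 167 in the main fit.

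The rule for naming picked KZS03308 and KZS16911, the members whose smaller clone difference was largest. KZS03308 had 0.290, 0.599 and 10.9 CPM in the GB control animals and 23.5, 9.40 and 9.01 CPM in GB CR. Its IL values were 0.902, 0.562 and 0 CPM in control and 0.178, 14.5 and 12.9 CPM in CR. The groups overlapped in both clones, since GB control replicate 3 was as high as CR animals and IL CR replicate 1 as low as controls. KZS16911 had 8.42, 5.31 and 14.6 CPM in GB control and 12.5, 202 and 22.4 CPM in GB CR. In IL its control values were 10.0, 1.90 and 2.67 CPM, and its CR values 31.1, 12.8 and 42.0 CPM. CR lay above control in every IL animal of KZS16911, whereas in GB the lowest CR animal was below the highest control. Neither passed the test, with log2 fold changes of 2.36 ± 1.12 (SE, edgeR adjusted p = 0.282) and 2.69 ± 0.796 (SE, edgeR adjusted p = 0.0716). That of KZS03308 was 4.45 without GB control replicate 3 (edgeR adjusted p = 0.0357), and that of KZS16911 was 1.44 without GB CR replicate 2.

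KZS14727, which is named for its comparison of BHB with NMN, was an abundant and even member. It had 450, 329 and 593 CPM in GB control and 1018, 945 and 1041 CPM in GB CR. Its IL values were 289, 404 and 376 CPM in control and 582, 615 and 728 CPM in CR. Every CR library was above every control library in both clones, and its log2 fold change was 0.83 ± 0.147 (SE, edgeR adjusted p = 0.00269), a value from the contrast that chose it.

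**Figure D2:**
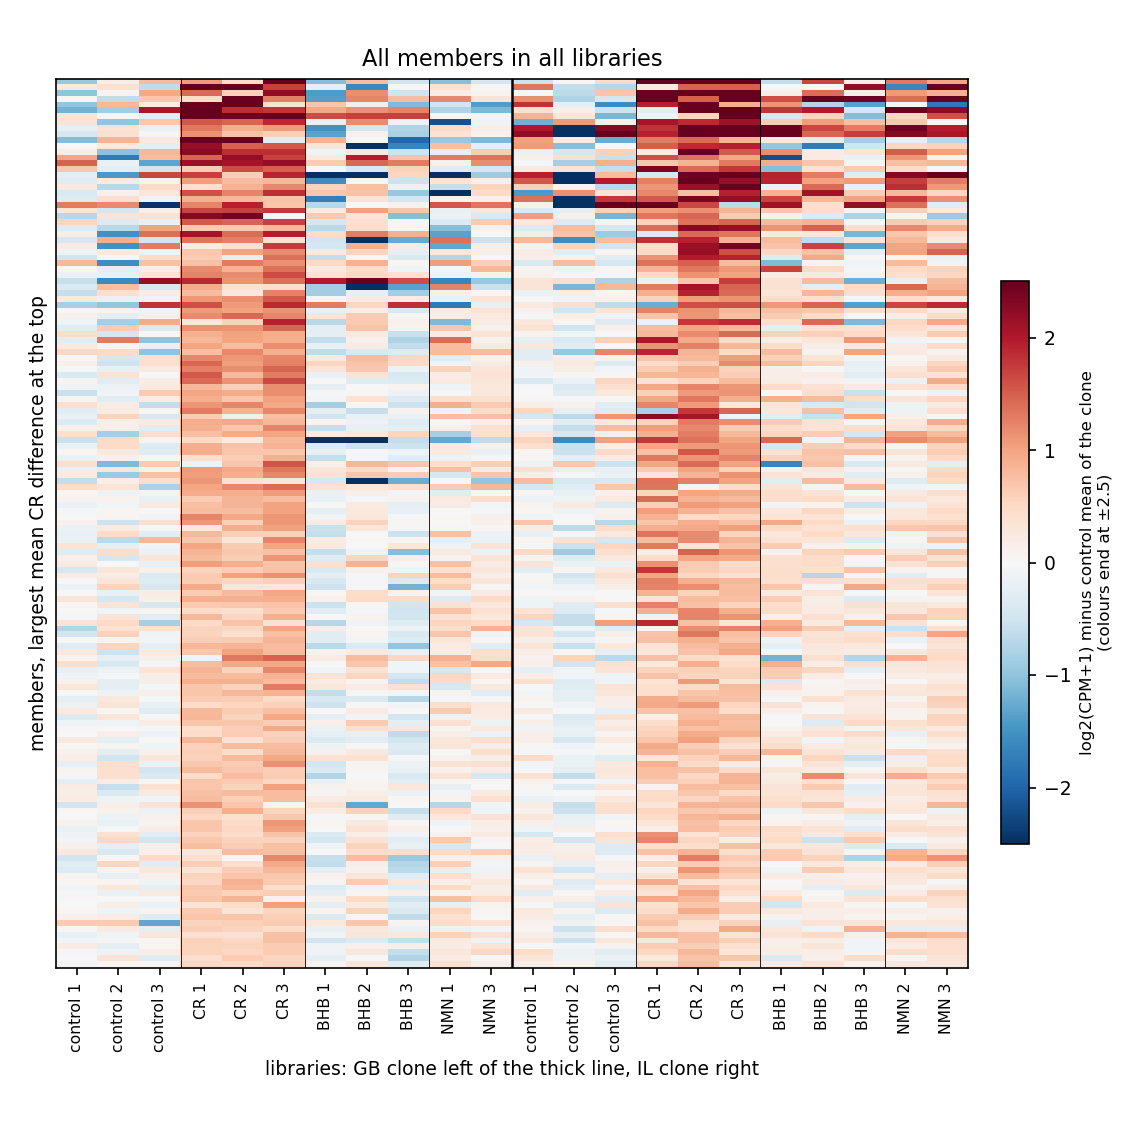
Level of each of the 151 members (rows, ordered by mean CR difference) in each of the 22 libraries (columns), as log2(CPM + 1) minus the control mean of the clone, with colours ending at ±2.5. The CR columns are mostly red by choice of the members, the top rows vary most between animals of a group, and IL control replicate 2 is dark blue in some of those rows.

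The question for the supplements was how these members stood in animals that kept the full diet and were exposed to BHB or NMN. They stood at or near control in GB and somewhat above it in IL. These levels are set against the control animals that chose the members, so members low in control by chance are set higher. The mean member level in the 3 GB control animals was -0.04, -0.04 and 0.08 relative to their mean, and in GB CR it was 0.95, 0.91 and 1.01. GB BHB animals stood at -0.17, 0.12 and -0.16, and GB NMN animals (replicates 1 and 3) at 0.09 and 0.15. In GB, all BHB and NMN animals were thus within about 0.2 of control and below every CR animal.

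In IL the control animals spread more widely, at 0.18, -0.30 and 0.12, and CR animals stood at 0.83, 1.14 and 0.99. IL BHB animals stood at 0.36, 0.41 and 0.13, and IL NMN animals (replicates 2 and 3) at 0.41 and 0.52. Both NMN animals and 2 of the 3 BHB animals were above all IL controls, and all were below every CR animal. The other 2654 gene models within the limits averaged -0.02 in GB BHB and 0.13 in GB NMN, and -0.001 in IL BHB and 0.05 in IL NMN. The GB NMN level of the members was thus about that of the other gene models, and their IL levels were above it. Without IL control replicate 2, the mean member differences in IL were 0.15 for BHB and 0.32 for NMN. The remaining IL controls also took part in choosing the members.

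**Figure D3:**
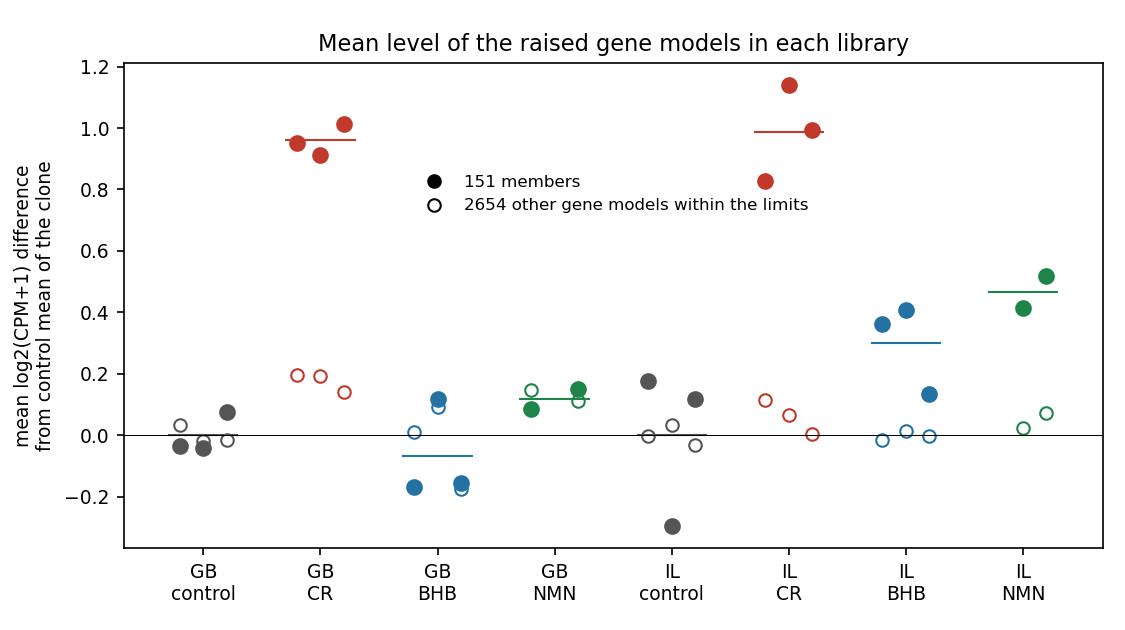
Mean log2(CPM + 1) difference from the control mean of the clone in each library, for the 151 members (filled points) and the 2654 other gene models within the limits (open points), with a bar at the group mean of the members. GB BHB and GB NMN members lie from -0.17 to 0.15 and IL BHB and IL NMN members from 0.13 to 0.52, below the CR values of 0.83 to 1.14. The CR and control animals took part in choosing the members.

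Member by member, the median BHB minus control difference was -0.04 in GB, with 68 of 151 above 0, and 0.25 in IL, with 130 above 0. Over all rows within the limits the medians were 0.02 and -0.01, with 55.7% and 46.8% above 0, beside 45.0% and 86.1% of the members. For NMN the median was 0.17 in GB, with 112 members above 0, and 0.36 in IL, with 139 above 0. Over all rows the NMN medians were 0.15 and 0.05, with 78.6% and 60.8% above 0, beside 74.2% and 92.1% of the members. The GB NMN share of members was thus below that of all rows. With TMM scaling the NMN medians of the members were 0.05 and 0.30. These differences use the same control animals that chose the members, so a member that was low in control by chance is set higher here too. Without IL control replicate 2, the lowest of the IL controls, the IL medians were 0.15 for BHB, with 108 above 0, and 0.25 for NMN, with 123 above 0. These are 71.5% and 81.5% of members, and over all rows the medians were then 0.01 and 0.07, with 51.9% and 65.6% above 0.

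Differences as large as the 0.5 limit were found in a minority of members, at shares above those of all rows within the limits. In GB BHB 13 members reached it (8.61%, against 4.71% of rows within the limits) and in IL BHB 29 (19.2% against 4.28%). In NMN the counts were 19 in GB (12.6% against 5.92%) and 43 in IL (28.5% against 6.56%). Both clones reached it in 2 members for BHB (1.32% against 0.143%) and in 6 for NMN (3.97% against 0.82%). Members above control in both clones numbered 57 in BHB (37.7%, against 19.3% of all rows within the limits) and 106 in NMN (70.2% against 48.4%). Those below control in both clones numbered 10 in BHB (6.62% against 16.9%) and 6 in NMN (3.97% against 8.98%). All these counts use the control animals that chose the members.

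Separation of the animals was counted against the same controls that chose the members. Members low in control are thus set higher here too, and the counts add no separate support. Every BHB library lay above every control library in 5 members in GB (3.31%, against 3.21% of rows within the limits) and in 12 in IL (7.95% against 2.17%). For NMN the counts were 29 members in GB (19.2% against 27.7%) and 56 in IL (37.1% against 15.9%). The GB shares were therefore near or below those of all rows. In edgeR's test, 0 of the 151 members differed between BHB and control (0% of all tested), and 10 did at an unadjusted p under 0.05 (6.62% against 3.04%). Between NMN and control 0 members passed (0% of all tested), with 12 at an unadjusted p under 0.05 (7.95% against 5.16%). DESeq2 also called 0 members in both comparisons, and over all gene models 0 for BHB and 4 for NMN.

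**Figure D4:**
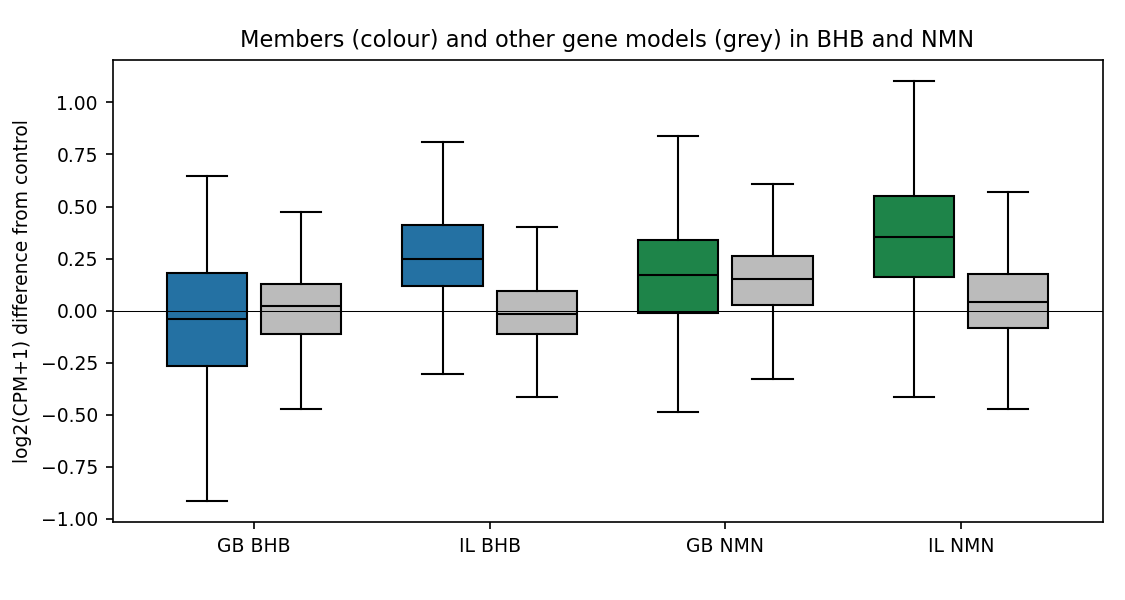
Difference from control on the log2(CPM + 1) scale for the 151 members (coloured) and the 2654 other gene models within the limits (grey) in BHB and NMN of each clone; boxes span the quartiles with a line at the median, whiskers reach the farthest value within 1.5 times the box height, and values beyond are not drawn. The member boxes are centred at -0.04 and 0.17 in GB BHB and NMN, and at 0.25 and 0.36 in IL BHB and NMN.

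Set directly against restriction, 52 members (34.4%) were lower in BHB than in CR in edgeR's test, against 1.69% of all gene models tested. In NMN, 10 members (6.62%) were lower than in CR, against 0.222% of all tested. Both counts use the CR animals that chose the members, so they are descriptions, and the NMN groups hold fewer animals. Both also fell when some single libraries were left out. The BHB count was 25, 33 and 26 without GB BHB replicate 1, 2 or 3, 32 without GB CR replicate 3 and 29 without IL CR replicate 2. Calls over all gene models, in either direction, fell as well, from 150 to 87, 115, 85, 90 and 91 in that order. The NMN count was 0 without either GB NMN library and 6 without IL NMN replicate 2. There the calls over all gene models fell from 22 to 7 and 1 without GB NMN replicate 1 or 3, and to 12 without IL NMN replicate 2.

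The comparison of BHB with NMN uses no library that entered the restriction difference. It asks only whether BHB and NMN differ in these members. The response to restriction, or to either supplement against control, is not tested by it. BHB and NMN libraries also differed in library number, with means of 6.33 and 13.25. No member passed this comparison (0 of 151, against 0.0201% of all gene models tested, which is 1 of 4965). DESeq2 called 0 members as well, and 7 gene models in all. At an unadjusted p under 0.05 there were 9 members (5.96%), against 6.2% of all tested. The median BHB minus NMN difference was -0.16, with 36 members above 0 (23.8%), beside -0.10 and 24.4% over all rows within the limits. With TMM scaling it was -0.07, with 60 members above 0 (39.7%), beside -0.01 and 47.5% over all rows. Every NMN library was above every BHB library in both clones in 6 members (3.97%, against 6.1% of rows). The shares of members at an unadjusted p under 0.05 and, without TMM, above 0 were thus near those of all rows, whereas with TMM the share above 0 was lower among members. The BHB minus NMN difference did not differ detectably between the clones, with 0 members called in the interaction (0% of all tested) and 12 at an unadjusted p under 0.05 (7.95% against 8.92%).

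The members with the smallest p in the direction of BHB were KZS14727 and KZS06895. KZS14727 had 526, 767 and 636 CPM in GB BHB and 372 and 475 CPM in GB NMN. Among IL animals it had 535, 444 and 336 CPM in BHB and 365 and 414 CPM in NMN. The groups were apart in GB and overlapped in IL, and the log2 fold change was 0.47 ± 0.165 (SE, edgeR adjusted p = 0.65). KZS06895 stood at a higher level in IL than in GB. It had 39.4, 53.9 and 39.9 CPM in GB BHB and 40.8 and 43.1 CPM in GB NMN, which overlapped. Its IL values were 138, 107 and 211 CPM in BHB and 95.7 and 98.5 CPM in NMN, which did not overlap. Its log2 fold change was 0.46 ± 0.196 (SE, edgeR adjusted p = 0.745), and 0.28 without IL BHB replicate 3.

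In the direction of NMN they were KZS11552 and KZS19644. KZS11552 had 1.66, 4.00 and 2.32 CPM in GB BHB and 7.87 and 6.61 CPM in GB NMN, with 4.88, 2.71 and 2.42 CPM in IL BHB and 3.34 and 4.60 CPM in IL NMN. KZS19644 had 44.4, 52.2 and 37.5 CPM in GB BHB and 88.5 and 70.4 CPM in GB NMN, with 68.2, 55.7 and 59.4 CPM in IL BHB and 59.0 and 72.4 CPM in IL NMN. For both, BHB and NMN were apart in GB and overlapped in IL. Their log2 fold changes were -0.79 ± 0.296 (SE, edgeR adjusted p = 0.714) and -0.38 ± 0.157 (SE, edgeR adjusted p = 0.735), and neither passed. That of KZS19644 was -0.25 without GB NMN replicate 1.

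Among members with the same sign of difference in both clones, KZS16911 and KZS03308 had the highest mean BHB difference from control, and KZS18147_1 and KZS17417_4 the lowest. KZS03308 had 4.59, 5.41 and 5.89 CPM in GB BHB and 3.95, 4.66 and 0.0734 CPM in IL BHB, a difference of 1.11 in each clone. Its NMN values were 0.730 and 0.339 CPM in GB and 9.92 and 5.75 CPM in IL. NMN animals were thus at the level of the lower controls in GB, and above every control in IL. KZS16911 had 2.77, 21.6 and 15.9 CPM in GB BHB and 13.95, 41.8 and 25.4 CPM in IL BHB. It had 21.3 and 11.4 CPM in GB NMN and 11.9 and 70.8 CPM in IL NMN. In IL, every BHB and NMN animal was above every control for KZS16911, and in GB they overlapped with control. Its BHB log2 fold change was 1.51 ± 0.790 (SE, edgeR adjusted p = 0.999) and its NMN log2 fold change 1.95 ± 0.860 (SE, edgeR adjusted p = 0.937). The NMN value was 0.90 without IL NMN replicate 3.

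KZS18147_1, on the first of 2 rows with its identifier, was a member with a high mean level in CR and a low mean level in BHB. It had 561, 666 and 473 CPM in GB control, 2542, 1555 and 1644 CPM in GB CR and 696, 32.9 and 177 CPM in GB BHB. In IL it had 635, 143 and 299 CPM in control, 866, 1096 and 1164 CPM in CR and 154, 88.6 and 211 CPM in BHB. CR and BHB did not overlap in either clone, whereas BHB overlapped with control in both. NMN stood at 942 and 478 CPM in GB and 432 and 450 CPM in IL. The BHB log2 fold change from control was -1.07 ± 0.482 (SE, edgeR adjusted p = 0.999), and -1.64 without GB BHB replicate 1.

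KZS17417_4 and KZS13750 had the lowest mean NMN differences, and KZS16911 and KZS10168 the highest. KZS17417_4, on the fourth row of an identifier on 4 rows, had 5.74, 24.7 and 15.9 CPM in GB control, 177, 189 and 10.7 CPM in GB CR and 6.41 and 5.60 CPM in GB NMN. In IL it had 199, 112 and 40.3 CPM in control, 236, 260 and 177 CPM in CR and 84.1 and 58.8 CPM in NMN. Its BHB values were 24.999, 13.3 and 2.68 CPM in GB and 114, 79.0 and 53.4 CPM in IL. NMN and control overlapped in both clones, and GB CR replicate 3 stood among the controls. KZS13750 had 3.49, 14.4 and 9.06 CPM in GB control, 105, 123 and 10.4 CPM in GB CR and 5.35 and 2.37 CPM in GB NMN. In IL it had 48.4, 11.04 and 3.78 CPM in control, 53.7, 82.6 and 25.5 CPM in CR and 13.7 and 3.12 CPM in NMN. GB CR replicate 3 was also the low CR animal for KZS13750. The NMN log2 fold changes were -1.02 ± 0.722 and -1.37 ± 0.821 (SE, edgeR adjusted p = 0.954 for both). Without IL control replicate 1 they were -0.64 and -0.62.

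KZS10168 showed how far a single animal could set a difference. It had 113, 169 and 116 CPM in GB control, 326, 247 and 273 CPM in GB CR, 44.9, 92.7 and 77.4 CPM in GB BHB and 185 and 147 CPM in GB NMN. In IL it had 129, 0.633 and 159 CPM in control, 112, 266 and 219 CPM in CR, 213, 102 and 77.8 CPM in BHB and 173 and 126 CPM in NMN. GB BHB lay below every GB control, and IL control replicate 2 was far below all other animals. The NMN log2 fold change was 0.35 ± 0.687 (SE, edgeR adjusted p = 0.992), and 0.08 without IL control replicate 2.

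The members' spread between animals of a group was larger than that of all rows within the limits. The median within-group SD of the log2 level was 0.34 for members, with quartiles of 0.23 and 0.59. It was 0.22 for all rows within the limits, members included, whose levels were also higher. Rows that vary between animals reach the 0.5 limit more easily, and this SD includes the CR and control libraries. The larger spread is thus not read as a trait of the members. Divided at that median, the 76 steadier members held 65 whose CR and control libraries were apart in both clones, and the 75 more variable members held 17. Over all rows within the limits 7.34% were apart in this way. A difference of at least 0.5 with a small spread leaves little room for overlap, so nothing is read from these counts. The median CR difference was 0.71 in the steadier and 1.05 in the more variable members. Among the steadier members the median BHB difference was -0.03 in GB and 0.21 in IL, and the median NMN difference 0.20 and 0.34. Without IL control replicate 2 the IL medians of these steadier members were 0.16 for BHB and 0.24 for NMN, and they too are set against controls that chose the members.

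Some animals departed from the others of their group in many members. Each library was set against the mean level of the others of its group. IL CR replicate 1 was at least 1 below that mean in 20 members and at least 1 above it in 7, which is 17.9% of members. IL control replicate 3 was apart in this way in 17.2%, and GB control replicates 2 and 3 in 15.2% each. For IL control replicate 2 and IL BHB replicate 2 it was 13.9% each. Over all rows within the limits the share was 0.856% to 9.73% per library. Among these rows it was 9.73% in IL CR replicate 1 and 8.52% in IL control replicate 3. In the other libraries listed it was 9.20%, 8.45%, 6.42% and 5.92%, in the order given.

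Members that departed together formed small sets. Deviations from the group means were clustered (average linkage on 1 - r, ended at 0.4), a division made after the values had been seen and given no test. It gave 9 sets of 5 or more members that held 68 of the 151. Across all pairs of members the median r was 0.13, against 0.08 over pairs of rows within the limits. Pairs with r over 0.8 made up 0.759% of member pairs and 1.76% of pairs over all rows within the limits. Members thus had the higher median r but the smaller share of pairs with r over 0.8.

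A set of 7 members, KZS10168 among them, was set apart by IL control replicate 2. Its mean log2 level was 5.37, 1.79 and 5.65 in the IL control animals and 5.55, 6.29 and 6.08 in IL CR. In GB it was 5.37, 5.83 and 5.55 in control and 6.48, 6.40 and 6.45 in CR. All 7 were lower in IL control replicate 2 than in any other library of the study. The IL restriction difference of the set was 1.70 with that animal and 0.46 without it, while the GB difference, which does not use it, was 0.86. BHB levels of the set were 4.54, 5.61 and 5.08 in GB and 5.72, 5.15 and 5.11 in IL, and NMN levels 5.84 and 5.69 in GB and 5.65 and 5.39 in IL. Apart from the low control animal, IL BHB and NMN levels were thus about those of IL control. Of the 7 members, 1 passed the test of CR against control.

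**Figure D5:**
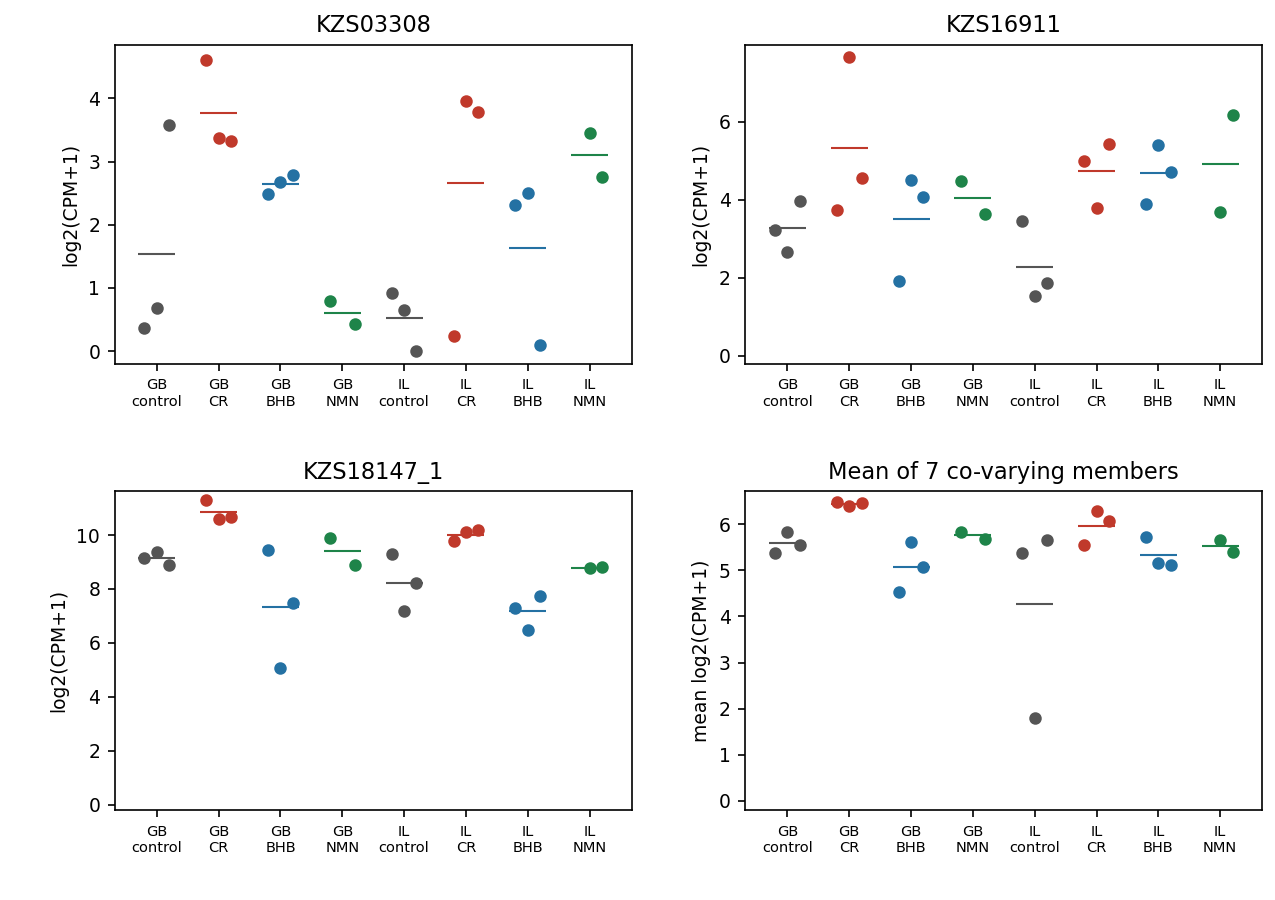
Level in each library, as log2(CPM + 1), of KZS03308, KZS16911 and KZS18147_1, and the mean level of the set of 7 members that vary together; points are animals and bars are group means. KZS18147_1 is higher in CR than in BHB in both clones, and its BHB animals overlap with control. The set of 7 stands at 1.79 in IL control replicate 2 against 4.54 or more in all other animals.

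A set of 12 members, which includes KZS03308 and KZS14727, followed other animals. Its mean log2 level was 5.14, 4.49 and 6.44 in GB control and 6.63, 6.34 and 6.79 in GB CR, and 5.47, 5.67 and 5.04 in IL control and 5.57, 6.85 and 7.03 in IL CR. GB control replicate 3 was close to CR and IL CR replicate 1 close to control. Its BHB levels were 5.69, 6.23 and 6.01 in GB and 6.07, 6.29 and 4.76 in IL. Its NMN levels were 4.51 and 5.35 in GB and 6.07 and 6.20 in IL, so NMN was near the lower controls in GB and above control in IL.

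A set of 11 members had the reverse order in GB control. Its mean log2 level was 6.24, 6.38 and 5.33 in GB control and 6.73, 6.85 and 6.77 in GB CR. In IL it was 5.86, 5.39 and 6.83 in control and 7.60, 6.94 and 6.41 in CR. GB control replicate 3 was the low animal of its group here, and IL CR replicate 1 the high animal of its group, the opposite of the set of 12. BHB levels were 5.61, 5.99 and 5.88 in GB and 6.56, 6.22 and 6.70 in IL, and NMN levels 6.51 and 6.53 in GB and 6.39 and 6.16 in IL.

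Members with close identifier numbers were somewhat more common than elsewhere. Of 216 rows within the limits that had a member other than themselves within 5 identifier numbers, 21 (9.72%) were members, against 5.02% of the remaining rows. Within 20 numbers it was 49 of 730 (6.71%) against 4.92%. Identifiers starting KZR numbered 99 among the rows within the limits and 0 among the members. Whether close numbers mean close places in the genome was not examined here.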

How the data were processed

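RNA sequencing counts of 22 libraries were used as the authors deposited them: raw counts per gene model, none normalised. Per the submitters' processing notes, FastQC, Trim Galore 0.4.5, STAR and DESeq2 were used; for the counting tool, genome build or annotation nothing is given in the sources used here. By the labels' protocols, libraries kept the strand of the RNA. Groups came from the letters of the titles; L was read as CR by elimination.

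The members and the lists were chosen with earlier results of these data known. CPM are counts scaled to a common library total, the usual unit of that name, and levels are log2(CPM + 1), a scale that understates changes of low genes. The test was edgeR 4.0.16 in R 4.3.3: filterByExpr on the 8 groups (minimum count 10, minimum total 15; 4965 gene models, all 151 members), TMM, robust quasi-likelihood F test over all 22 libraries with clone and treatment, and 8 group means for the interaction. P-values were adjusted by Benjamini-Hochberg over all 4965, threshold 0.05. Standard errors come from the fold change and its F statistic. The biological coefficient of variation was 36.1%. Each library is 1 female; the design gives 3 founding females a clone, whose descendants may be shared across groups. Every pair of libraries in a group differed beyond sampling noise (lowest chi-square over its degrees of freedom, 43.2).

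The named members were the 2 with the largest smaller clone difference in CR, the 2 with the smallest p in each direction of BHB against NMN, and, among those with 1 sign in both clones, the 2 highest and 2 lowest mean differences from control for BHB and for NMN. Alternatives were median-ratio size factors, DESeq2 1.42.0, omission of the low-count filter, library number as a term, the replicate number as a block, each library left out, other pseudocounts, thresholds and level limits, and TMM-scaled CPM.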

Additional observations from a re-analysis of the deposited data

Results flagged for a closer look

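The 10 named members were examined in the control, CR, BHB and NMN libraries, clones together, for an animal far from the rest of its treatment (Dixon's criterion on CPM). With the members' mean level and share of counts this made 48 groups. The criterion marks about 1 in 20 groups by chance where all values follow 1 normal distribution. CPM of both clones together need not do so, and members were named for extreme differences. That rate may thus not hold here, and the number marked was not tested. The animals that stood apart on the high side were GB control replicate 3 for KZS03308, at 10.9 CPM where the next control had 0.902, IL BHB replicate 1 for KZS10168, at 213 CPM against 102, and IL control replicate 1 for KZS13750, at 48.4 CPM against 14.4. GB CR replicate 2 had 202 CPM of KZS16911, against 42.0 in the next CR animal, and IL NMN replicate 3 had 70.8 CPM, against 21.3. KZS18147_1 was high in GB BHB replicate 1, at 696 CPM against 211, and in GB NMN replicate 1, at 942 CPM against 478. On the low side were IL BHB replicate 3 for KZS03308, at 0.0734 CPM against 3.95, IL control replicate 2 for KZS10168, at 0.633 CPM against 113, IL CR replicate 3 for KZS11552, at 4.60 CPM against 8.43, and GB CR replicate 3 for KZS17417_4, at 10.7 CPM against 177.

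For 3 named members every IL animal lay above its control mean and every GB animal below it. KZS03308 differed from control in NMN by 2.58 in IL and -0.93 in GB on the log2(CPM + 1) scale, but the GB value was 0.08 without GB control replicate 3, so the opposite signs rest on that animal. KZS10168 differed in BHB by 1.89 in IL and -0.92 in GB, but the IL value was -0.26 without IL control replicate 2, which turns its direction. KZS19644 differed in BHB by 0.33 in IL and -0.27 in GB, and kept both signs without any single control, at 0.17 to 0.50 in IL and -0.30 to -0.23 in GB. Leaving out controls here was chosen after seeing the data. The differences between clones were not tested.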

How the results depend on the processing

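The number of members, 151, was 83 with TMM-scaled CPM and 99 at a difference of 0.6, and 135 to 209 with single libraries left out. Without IL control replicate 2 it was 142, of which 116 were among the 151. DESeq2 called more members than edgeR, with 101 for CR against control (63 in edgeR) and 38 for NMN against CR (10 in edgeR). It also called more gene models in all, 343 against 167 and 107 against 22, so the rise was not limited to members. With library number as a term edgeR called 1 for CR against control, 0 for BHB against CR and 0 for NMN against CR. Over all gene models it then called 1, 0 and 1. All CR libraries have the highest numbers, so that term and restriction cannot be told apart. Leaving out single libraries gave 41 to 73 members for CR against control, 25 to 61 for BHB against CR and 0 to 12 for NMN against CR. In the fits with the lowest and highest member counts, 125 and 218 gene models were called in all for CR against control. For BHB against CR these totals were 87 and 183. For NMN against CR they were 7 or 1 at the lowest and 25 at the highest. The member count stayed at 0 for BHB against NMN, BHB against control, NMN against control and the interaction. The median NMN difference in GB, 0.17, was 0.051 with TMM and 0.13 with a pseudocount of 5. Medians with single libraries left out were -0.18 to 0.02 for BHB and 0.16 to 0.18 for NMN in GB, and 0.15 to 0.32 and 0.25 to 0.43 in IL. The CR log2 fold change of KZS03308 reversed to -0.28 with library number as a term (edgeR adjusted p = 0.992; 2.36 without) and passed without GB control replicate 3 (4.45, edgeR adjusted p = 0.0357); that of KZS16911 passed in DESeq2 (2.69, adjusted p = 0.00551). Of 376 alternative values of named members with an adjusted p, the other 373 kept their direction and side of the threshold, though several moved over 1.5 times with 1 library left out. DESeq2 gave no adjusted p for KZS03308 in CR or BHB against control, 2 further values. Libraries with 1 title number did not deviate together: over 30 pairs across groups of a clone, r was -0.75 to 0.71 with a median of 0.04, and 12 exceeded 0.1. With the replicate number as a block the members called were 58 for CR against control, 44 for BHB against CR, 7 for NMN against CR and 0 for the other comparisons. Over all gene models the calls for CR against control, BHB against CR and NMN against CR were then 144, 131 and 17. Members near 5 CPM rest on few reads and have the least precision, and NMN on 2 animals per clone.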
